A study of Mus musculus with 6 samples.

Results

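Smooth muscle cells and pericytes form the muscular and supporting wall of blood vessels, and together they are called mural cells. Smooth muscle contracts when myosin light chain kinase phosphorylates the regulatory light chain of its myosin, and calponin, transgelin, smoothelin and leiomodin act on the actin filaments it pulls. Pericytes wrap capillaries, are recruited there by PDGF-B from the endothelium through PDGF receptor β, and are kept in place in part by Notch3 signaling. None of these genes is exclusive to mural cells, since cultured fibroblasts and young heart muscle cells also make some of them.

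The values described here are those of 10 genes written down as markers of these cells: Tagln, Cnn1, Myh11, Smtn, Lmod1 and Mylk for the contractile machinery, and Pdgfrb, Rgs5, Notch3 and Cspg4 for pericytes. They were found by symbol through their Ensembl IDs in GENCODE M21 and make up 10 of the 54532 genes listed. All 10 lay above the mean of 0.5 FPKM required for testing, as did 13794 genes in all. FPKM counts fragments per kilobase of exon and adjusts for library size, so it can be compared between genes.

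RNA-seq was carried out on primary cardiomyocyte cultures from neonatal mouse hearts, 1 to 3 days old per the study's methods, whose Rit1 locus was engineered so that Cre recombinase switches on a pathogenic variant (M90I). RIT1 is a small GTPase of the RAS family. AdGFP cultures received an adenovirus encoding GFP and carry the genotype label Rit1 +/+. AdCre cultures received an adenovirus encoding GFP-Cre and carry the label Rit1 M90I/+. Infection was on day 3 after isolation, each group had 3 samples numbered 1 to 3, and the comparison asks what RIT1 M90I expression changes.

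Both groups came from mice with the engineered locus. No AdCre culture of mice without it was among the samples, so effects of Cre and of the variant cannot be told apart. The cells were not sorted. Aortic tissue was trimmed away, cells that settled on plastic were left behind, and the cells still afloat were plated on laminin. The labels call the samples biological replicates without saying what a number marks, so p-values measure the spread between these samples, and in such bulk cultures fewer cells of a type and less RNA per cell cannot be told apart. The depth recovered from the values was 25.28 to 26.55 M reads (M, megareads) per AdGFP sample and 25.98 to 32.43 M reads per AdCre sample.

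All 10 genes were detected in every sample, and 0 of the 10 passed the test between AdCre and AdGFP. Of all genes tested, 0.00725% passed (limma, Benjamini-Hochberg adjusted p under 0.05 over 13794 genes). At an unadjusted p under 0.05 there were again 0 members, against 10.2% of all genes. The groups overlapped for every member. Of all genes, 15.4% had groups without overlap, and 10 members are too few to tell 0 from that share. The median log2 fold change of the members was 0.01, with 5 positive and 5 negative, and that of all genes was 0.00. After rescaling to TPM, which moved all genes by 0.09 in the median, the members' median was 0.10 and 7 were positive. The median size of the log2 fold change, whatever its sign, was 0.19 for the members and 0.17 for all genes. The exact two-sided permutation test on FPKM gave p between 0.4 and 1.0 for the members, and 0.1 is the smallest p that 3 samples against 3 allow.

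**Figure D1:**
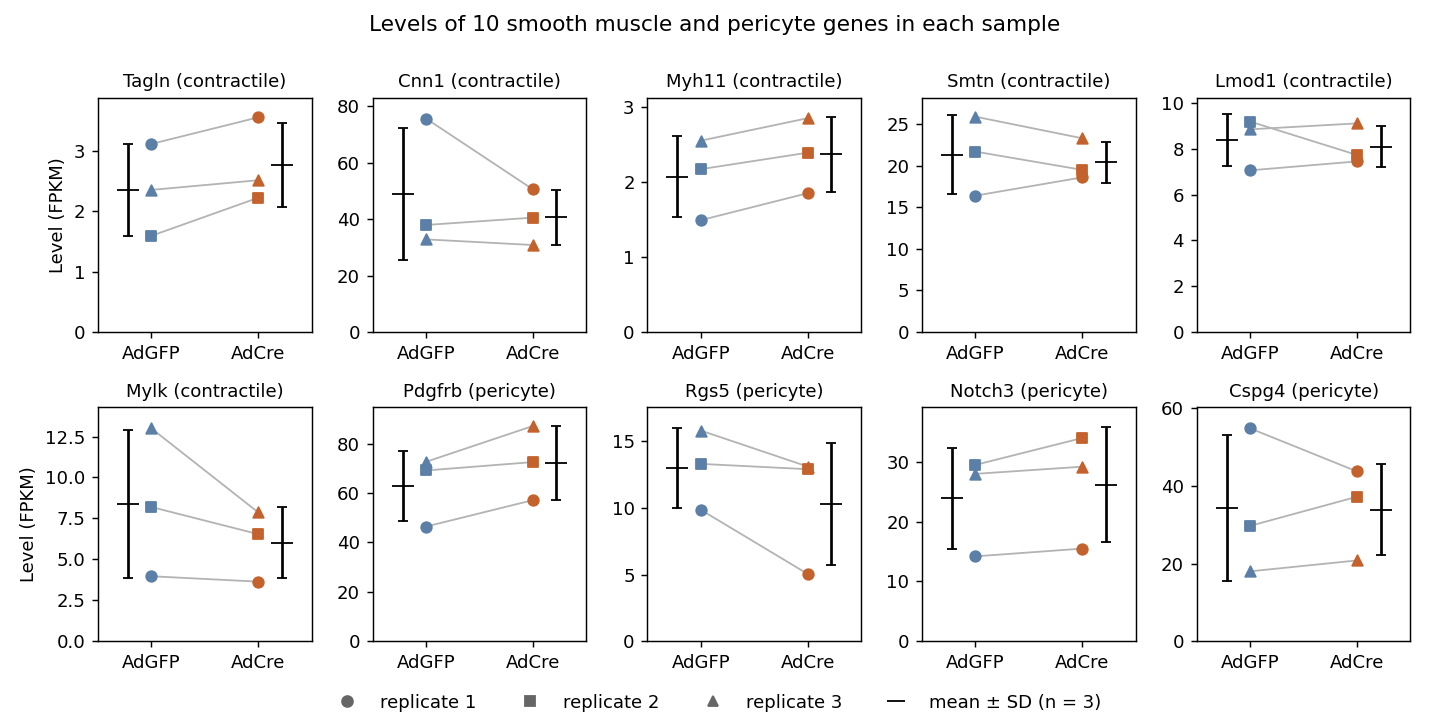
Level of each gene in FPKM in AdGFP (blue) and AdCre (orange), with lines joining samples of the same replicate number and horizontal ticks with bars for the mean ± SD of 3 samples. In every panel the groups overlap, and the distance between replicates of a group is mostly larger than that between the groups.

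The members differed from each other far more than between groups. Over all 6 samples the mean level ran from 67.5 FPKM for Pdgfrb through 44.7 for Cnn1, 34 for Cspg4, 25.1 for Notch3, 20.9 for Smtn, 11.7 for Rgs5, 8.23 for Lmod1 and 7.21 for Mylk to 2.55 for Tagln and 2.22 for Myh11. Neighbors in this order shared part of their range at all but 2 steps. The lowest Smtn sample (16.4 FPKM) lay above the highest Rgs5 sample (15.8 FPKM), and the lowest Mylk sample (3.64 FPKM) above the highest Tagln sample (3.55 FPKM). Cnn1 exceeded Cspg4 in 6 of 6 samples although their ranges overlapped.

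Myh11 (chr16:14194535-14291372, minus strand; positions here are in GRCm38, the build also called mm10) encodes the smooth muscle myosin heavy chain, the motor itself and the strictest marker of differentiated smooth muscle. It measured 1.49, 2.17 and 2.55 FPKM in AdGFP 1 to 3, and 1.85, 2.39 and 2.85 FPKM in AdCre 1 to 3. Replicate 1 was the lowest and replicate 3 the highest of both groups, and each AdCre sample lay above the AdGFP sample of its number. The means were 2.07 ± 0.537 and 2.37 ± 0.501 FPKM (SD, n = 3). AdCre differed from AdGFP by a log2 fold change of 0.20 (95% interval -0.40 to 0.79; limma, adjusted p = 0.872), and it came to -0.01 without AdGFP 1. Between 280 and 601 reads per sample stood behind these values.

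Mylk (chr16:34745210-35002420, plus strand) encodes the myosin light chain kinase that starts contraction. Its levels were 3.97, 8.20 and 13.0 FPKM in AdGFP 1 to 3 and 3.64, 6.54 and 7.87 FPKM in AdCre 1 to 3. It was the most uneven of the 10, with its highest sample 3.58 times its lowest, and AdGFP 3 stood above the rest. AdCre was lower at each number, by 0.12, 0.32 and 0.72 on the log2 scale. The fitted log2 fold change was -0.39 (95% interval -1.47 to 0.70; limma, adjusted p = 0.855), and without AdGFP 3 it was 0.01. With the replicate number in the model, the interval narrowed to -0.71 to -0.06, with an unadjusted p of 0.0278 and an adjusted p of 0.149 by limma, which did not pass.

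Cnn1 (chr9:22099216-22109630, plus strand) encodes calponin 1, which binds actin and holds back the actomyosin ATPase. AdGFP 1 to 3 had 75.6, 37.9 and 32.8 FPKM, and AdCre 1 to 3 had 50.5, 40.5 and 30.8 FPKM. Replicate 1 was the highest of each group, and the other 4 samples lay between 30.8 and 40.5 FPKM. The means of 48.8 ± 23.4 and 40.6 ± 9.84 FPKM (SD, n = 3) gave a log2 fold change of -0.19 (95% interval -0.99 to 0.60; limma, adjusted p = 0.912). Without AdGFP 1 it became 0.17. The lower AdCre mean thus came from that 1 pair, which differed by -0.58 on the log2 scale against 0.10 and -0.09 in the others.

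Tagln encodes transgelin (SM22α), an actin-binding protein that is among the most abundant transcripts of smooth muscle. Here it was listed at only 3.11, 1.59 and 2.35 FPKM in AdGFP 1 to 3 and 3.55, 2.22 and 2.51 FPKM in AdCre 1 to 3. Replicate 1 was again the highest of both groups and AdCre the higher of each pair. Its log2 fold change was 0.24 (95% interval -0.43 to 0.92; limma, adjusted p = 0.849), and leaving out single samples moved it between 0.00 and 0.47. Only 80 to 226 reads per sample supported it, the fewest of the 10.

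That level was low beside genes that smooth muscle makes together with it. Acta2, the smooth muscle actin, stood at 665 to 1120 FPKM, which was 295 to 419 times the Tagln level in the same sample. Cnn1 was 12.3 to 24.3 times as high as Tagln, and Tagln2, its paralog found in many cell types, was 74.9 to 128 times as high. The gene lies at chr9:45929619-45936058 on the minus strand. Exons of genes on the opposite strand cover 67.9% of its 1988 exon bases, mostly those of the antisense transcript Gm48529 (62.4%) and at the 3′ end those of Pcsk7, which leaves 639 bases free. In the main transcript, Tagln-201, 61.8% of the bases are covered.

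Gm48529 itself was listed at 0.271 to 0.733 FPKM, from 17 to 48 reads, and Pcsk7 at 5.34 to 8.96 FPKM. HTSeq, which the submitters' processing notes name, by default leaves out reads that overlap exons of several genes. Whether strand was used is not given in the sources used here, and without strand the reads of Tagln and Gm48529 cannot be told apart. The part of this overlap in the Tagln level was not tested, so the level is uncertain. All samples were counted in the same way, but its part in the comparison of groups was not tested either. Gm48529 had 0.271, 0.498 and 0.416 FPKM in AdGFP 1 to 3 and 0.529, 0.733 and 0.470 FPKM in AdCre 1 to 3. It was thus higher in AdCre at each number, as Tagln was, while Pcsk7 was lower in pairs 1 and 2 and higher in pair 3. Of the other members, Smtn (16.3%), Mylk (6.9%) and Notch3 (6.0%) have exon bases shared with the opposite strand, and the remaining 6 have 0.

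**Figure D2:**
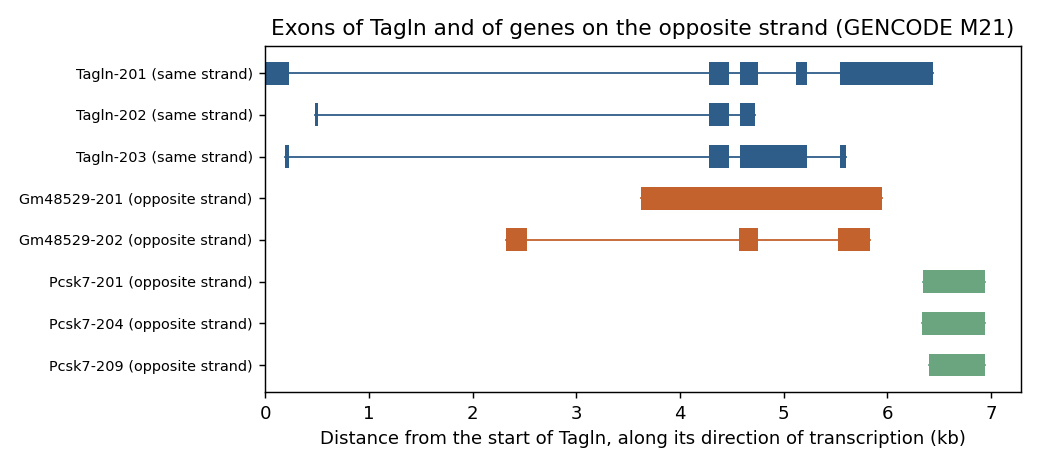
Exons (boxes) of the annotated transcripts of Tagln (blue) and of the opposite-strand genes Gm48529 (orange) and Pcsk7 (green, clipped to the region), drawn to scale by distance in kb from the start of Tagln. Most Tagln exon sequence downstream of the first exon lies under an exon of the antisense gene.

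Smtn (chr11:3517523-3540612, minus strand) encodes smoothelin, a cytoskeletal protein of contractile smooth muscle. Its levels were 16.4, 21.7 and 25.9 FPKM in AdGFP and 18.6, 19.5 and 23.3 FPKM in AdCre. All AdCre samples fell inside the AdGFP range. The log2 fold change was -0.04 (95% interval -0.49 to 0.41; limma, adjusted p = 0.977), and it was 0.11 without AdGFP 3 and 0.02 without AdCre 1.

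Lmod1 (chr1:135324807-135368065, plus strand) encodes leiomodin 1, which nucleates actin filaments in smooth muscle. It was the steadiest member, with 7.06, 9.19 and 8.85 FPKM in AdGFP and 7.45, 7.73 and 9.11 FPKM in AdCre, a highest sample 1.3 times the lowest. The AdCre samples again lay within the AdGFP range. The log2 fold change of -0.04 had the narrowest interval of the 10 (-0.40 to 0.31; limma, adjusted p = 0.968). It lay between -0.16 and 0.03 when single samples were left out, turning positive or to 0.00 without AdGFP 2, AdGFP 3 or AdCre 1.

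The contractile members together had a median log2 fold change of -0.04, with 2 positive and 4 negative. With TPM, Smtn and Lmod1 stood at 0.05, which is still below the median of 0.09 that all genes had on that scale. Their summed level was 80.7 to 108 FPKM in AdGFP and 76.4 to 85.5 FPKM in AdCre. It was lower in AdCre at each number, 85.5 against 108, 78.9 against 80.7 and 76.4 against 85.4 FPKM. Cnn1 was the largest part of the sum in every sample.

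Promoters of contractile smooth muscle genes are known to be bound by serum response factor at CArG boxes, and MCAT elements (CATTCC) are known from muscle promoters bound by TEAD factors. RefSeq promoter windows (GRCm38.p6, 250 bases before to 50 after a start) were at hand for 7 members: Cnn1, Smtn, Lmod1, Mylk, Rgs5, Notch3 and Cspg4. A CArG box was in 0 of these 7 windows and in 1.63% of all 32851 windows, on either strand. The windows of Lmod1, Mylk and Smtn held CATTCC, as did 14.7% of all windows, and when only the 150 bases before the start were read, Lmod1 alone did, against 7.59%. The RBPJ core TGGGAA, through which Notch acts, was in the Smtn window only (25.6% of all), and a GC box (GGGCGG) in those of Cspg4, Lmod1, Notch3 and Smtn (35.7% of all). CATTCC and TGGGAA read on opposite strands can share letters, and in Smtn they did not. A match is a description of the letters, and its absence says only that they are not in that window.

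The stretches around the CATTCC matches of the 3 contractile genes are shown because they are what these promoters share, written along each gene's own strand with the match in capitals (GGAATG is the same motif read on the other strand). The Lmod1 stretch is chr1:135324633-135324738 on the plus strand, the Mylk stretch chr16:34784742-34784847 on the plus strand, and the Smtn stretch chr11:3539459-3539542 on the minus strand. The Mylk and Smtn stretches lie within the annotated span of their gene, upstream of an internal start.
Lmod1: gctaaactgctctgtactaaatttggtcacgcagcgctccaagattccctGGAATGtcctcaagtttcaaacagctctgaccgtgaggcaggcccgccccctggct
Mylk: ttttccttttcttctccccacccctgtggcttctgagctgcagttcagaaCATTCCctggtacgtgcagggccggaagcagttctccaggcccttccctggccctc
Smtn: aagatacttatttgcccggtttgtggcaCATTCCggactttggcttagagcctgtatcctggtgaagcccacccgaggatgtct
Smtn and Lmod1 each had a log2 fold change of -0.04, and Mylk had one of -0.39.

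Pdgfrb, on chromosome 18, encodes the receptor tyrosine kinase for PDGF-B, on which pericyte recruitment depends, and fibroblasts carry it too. It was the highest of the 10 genes in the mean over all samples, though Cnn1 and Cspg4 exceeded it in AdGFP 1. It had 46.4, 69.1 and 72.6 FPKM in AdGFP 1 to 3 and 57.1, 72.5 and 87.1 FPKM in AdCre 1 to 3. AdCre was higher at each number, by 0.30, 0.07 and 0.26 on the log2 scale, while replicate 1 was the lowest of both groups. The means were 62.7 ± 14.2 and 72.2 ± 15.0 FPKM (SD, n = 3). The log2 fold change was 0.21 (95% interval -0.33 to 0.75, adjusted p = 0.838 by limma). Leaving out single samples moved it between 0.01, without AdGFP 1, and 0.37. With the replicate number in the model the interval was 0.01 to 0.41, the unadjusted p 0.04 and limma's adjusted p 0.18, which did not pass.

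Notch3 (chr17:32120820-32166852, minus strand) encodes the Notch receptor of mural cells. It measured 14.2, 29.5 and 28.0 FPKM in AdGFP and 15.5, 34 and 29.2 FPKM in AdCre. Both replicate 1 samples had about the same low level, and the 4 others were close to each other. For the groups, the log2 fold change was 0.13 (95% interval -0.77 to 1.02; limma, adjusted p = 0.96), with -0.21 without AdGFP 1 and -0.10 without AdCre 2. Replicate number held 97.9% of its variation.

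Cspg4 (chr9:56865033-56899870, plus strand) encodes NG2, a proteoglycan of the pericyte surface that immature glia also carry. Its levels were 54.8, 29.7 and 18 FPKM in AdGFP and 43.7, 37.2 and 20.8 FPKM in AdCre. Replicate 1 was highest and replicate 3 lowest in both groups, the reverse of Pdgfrb. The means of 34.2 ± 18.8 and 33.9 ± 11.8 FPKM (SD, n = 3) lay within 1 FPKM of each other, and the log2 fold change, taken from means of log2 values, was 0.07 (95% interval -0.97 to 1.11; limma, adjusted p = 0.986). It turned negative without AdGFP 3 (-0.32), AdCre 1 (-0.15) or AdCre 2 (-0.03).

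Rgs5 (chr1:169655501-169695813, plus strand) encodes a GTPase-activating protein that shortens G protein signaling and is a classical pericyte transcript. AdGFP 1 to 3 had 9.86, 13.3 and 15.8 FPKM, and AdCre 1 to 3 had 5.05, 12.9 and 13.1 FPKM. AdCre 1 was far below the other 5 samples, and AdCre 2 and 3 lay within the AdGFP range. The log2 fold change of -0.42 was the largest in size among the 10 (95% interval -1.33 to 0.48; limma, adjusted p = 0.796), and 2632 of all genes tested had a larger one. It was 0.03 without AdCre 1. Of 17 other mural cell markers tested, 11 also had their lowest level in AdCre 1 (18% of all genes did) and 2, Mcam and Trpc6, their highest (21%). Among the 11 were the pericyte transcripts Kcnj8, Abcc9 and Higd1b, at 1.12, 7.77 and 2.80 FPKM there, a tally made after their values were seen. The other pericyte members did not have their lowest level in AdCre 1. Pdgfrb had 57.1 FPKM in AdCre 1 against 46.4 in AdGFP 1, and Notch3 had 15.5 against 14.2. Cspg4 had 43.7 FPKM in AdCre 1 against 29.7 in AdGFP 2. Of the contractile members, only Mylk was lowest in AdCre 1, at 3.64 FPKM.

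The pericyte members had a median log2 fold change of 0.10, with 3 positive and 1 negative, that of Cspg4 only on the log scale. Their summed level was 125 to 142 FPKM in AdGFP and 121 to 157 FPKM in AdCre. Over all 10 members the sum was 220 to 233 FPKM in AdGFP and 207 to 235 FPKM in AdCre.

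**Figure D3:**
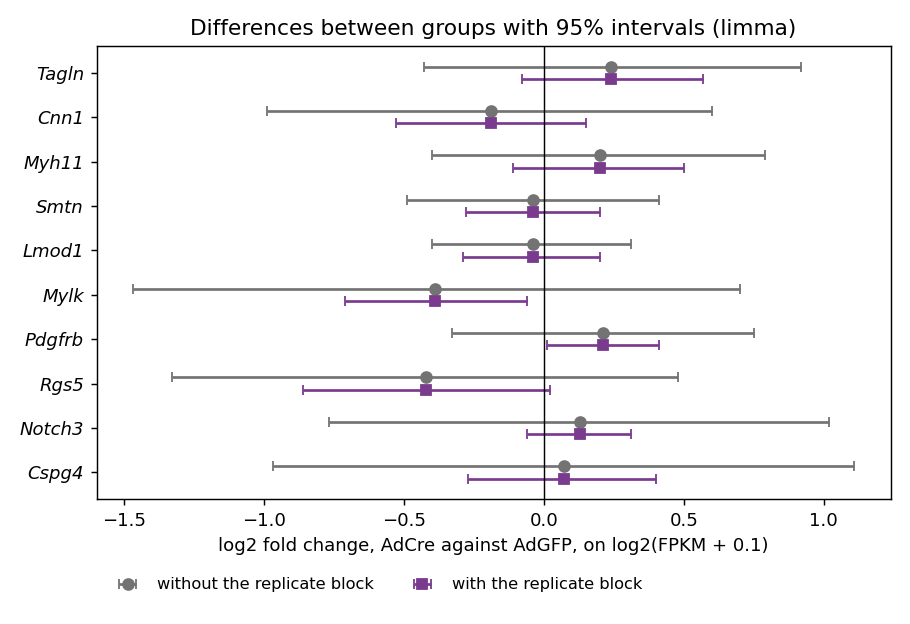
Log2 fold change of AdCre against AdGFP on log2(FPKM + 0.1) with 95% intervals from limma, fitted without (gray) and with (purple) the replicate number as a block. Every gray interval spans 0, and among the purple ones those of Mylk (-0.71 to -0.06) and Pdgfrb (0.01 to 0.41) do not, although neither gene passed after adjustment.

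The members' levels varied more with the replicate number than with the group, and the labels do not say what a number marks. The number has 3 levels, so it takes a larger share than the group even in random values. Splitting the sum of squares of log2(FPKM + 0.1) over the 6 samples, the number took between 71.2% (Rgs5) and 97.9% (Notch3) and the group between 0.365% (Cspg4) and 15.7% (Rgs5). The medians over the members were 85.2% for number and 7.26% for group, and over all genes tested 59.2% and 16%. The 3 replicates stood in the same order in both groups for 9 of the 10 members, the exception being Lmod1, and for 39.3% of all genes tested. Replicate 1 was the lowest of both groups for 7 members (Myh11, Smtn, Lmod1, Mylk, Pdgfrb, Rgs5 and Notch3) and the highest of both for Tagln, Cnn1 and Cspg4. Those patterns held for 26.0% and 27.9% of all genes.

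**Figure D4:**
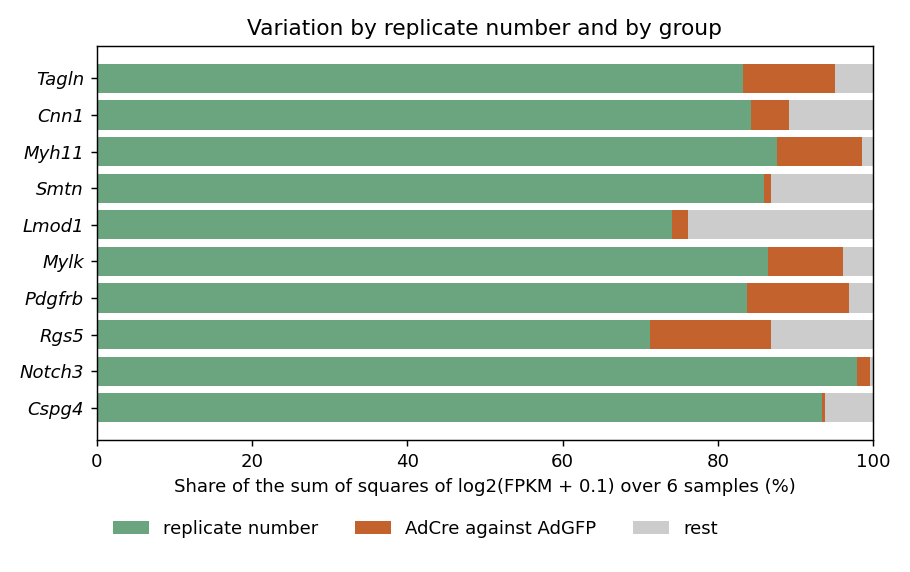
Share of each gene's variation over the 6 samples, as percent of the sum of squares of log2(FPKM + 0.1), that goes with the replicate number (green), with the group (orange) and with neither (gray). Green takes at least 71.2% of every bar.

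Since the number went with so much of the variation, the comparison was also made within numbers, with the number as a block in limma (called the paired fit below). The 0 members passing remained 0, against 6.15% of all genes, and 2 members (Mylk and Pdgfrb) had an unadjusted p under 0.05, against 24.7% of all genes. Of the 10, 6 went the same way in all 3 pairs, against 48.4% of all genes. These were Tagln, Myh11, Pdgfrb and Notch3, higher in AdCre, and Mylk and Rgs5, lower. With voom on reads worked back from the FPKM values, 0 members passed without the block (0.0% of all genes did) and 0 with it (12.6% of all genes did). In voom with the block, 4 members had an unadjusted p under 0.05. The share of all genes at that threshold is not given here. Of 18 other genes named below as passing in the paired fit, 18 passed with voom and the block as well, but 0 did without the eBayes trend, without the filter or without pair 3, and 4 without pair 2. The lowest adjusted p of a member under any of the 23 alternatives was 0.0682, for Pdgfrb with voom and the block.

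Paralogs of the contractile members are mostly versions made by striated muscle or by many cell types. They had a median log2 fold change of -0.33 and a median size of 0.41, against 0.19 for the members. None passed without the block, and 5 of 12 had an unadjusted p under 0.05, beside 10.2% of all genes. With it, limma passed 4 of 12 tested, all lower in AdCre, beside the 6.15% of all genes above. Voom with the block passed 8 of 12, the same 4 and, as higher in AdCre, Tagln2 (adjusted p = 0.0384), Cnn3 (0.0204), Myh9 (0.0212) and Mylk2 (0.043), beside 12.6% of all genes. Lmod2, the leiomodin of striated muscle, had 103, 131 and 89.0 FPKM in AdGFP and 50.7, 84.1 and 43.0 FPKM in AdCre. Its groups did not overlap (log2 fold change -0.90, adjusted p in the paired fit 0.0169 by limma). Mylk3, the cardiac myosin light chain kinase, had 65.5, 93.6 and 66.6 FPKM against 38.5, 58.4 and 35.2 FPKM, also without overlap (-0.79, adjusted p in the paired fit 0.0144 by limma).

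Smtnl2, a relative of smoothelin found in striated muscle, went from 12.1 ± 0.456 to 7.80 ± 1.57 FPKM (SD, n = 3; log2 fold change -0.65, adjusted p in the paired fit 0.0364 by limma). Myh14, a nonmuscle myosin heavy chain, was low throughout at 0.549 to 2.87 FPKM (-0.95, adjusted p in the paired fit 0.0395 by limma), and its value was -0.63 without AdCre 1. The others tested did not pass in limma without or with the block. They were the broadly made Tagln2 (0.31), Cnn2 (0.10), Cnn3 (0.28), Myh9 (0.28) and Myh10 (-0.35), and the muscle genes Lmod3 (-0.32), Mylk2 (0.89) and Mylk4 (-0.46), each with its log2 fold change. Leaving out single samples took Lmod3 from -0.61 to -0.03, Mylk4 from -0.91 to -0.09, Myh10 from -0.45 to -0.19, Tagln2 from 0.19 to 0.41 and Cnn2 from 0.00 to 0.27. Tagln3 and Smtnl1 were below the level for testing. Lmod2, Mylk3 and Smtnl2 shared their direction with the 15 cardiomyocyte markers, whose median log2 fold change was -0.78, with 15 of 15 negative and 8 passing as lower in the paired fit, and the part of heart muscle RNA in these differences was not tested.

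**Figure D5:**
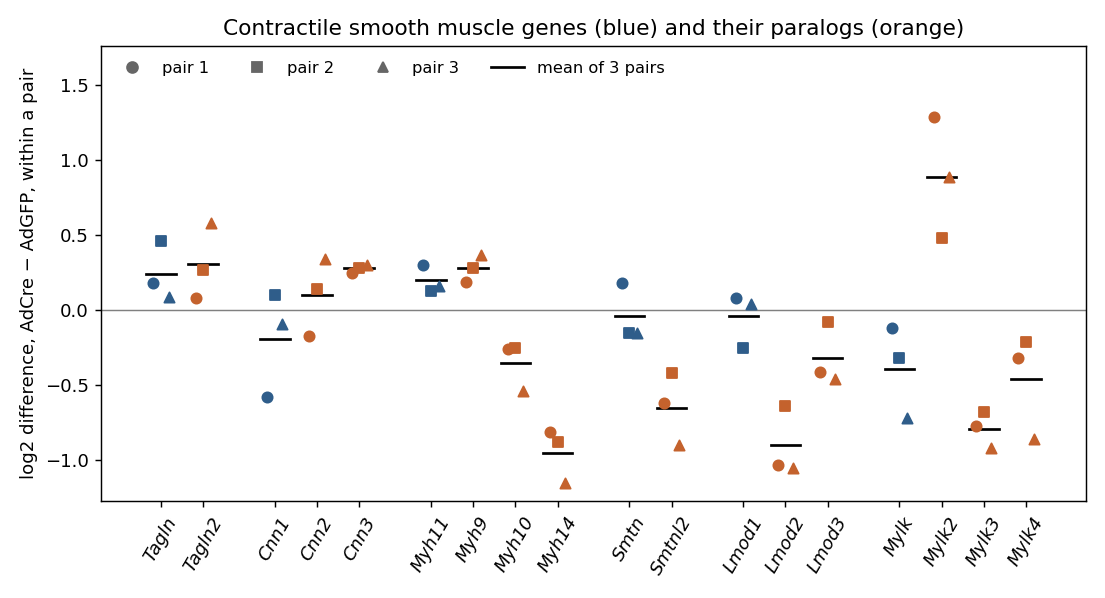
Log2 difference of AdCre minus AdGFP within each replicate number (points) and its mean (bars) for the contractile members (blue) and their paralogs (orange). The blue means lie between -0.39 and 0.24, and those of Lmod2, Mylk3, Smtnl2 and Myh14 between -0.95 and -0.65.

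Whether a paralog moved apart from its member was tested on the log2 ratio of paralog to member in each sample, for 18 ratios that also took in Pdgfra, Notch1, Notch2, Notch4, Rgs4 and Rgs16. No ratio passed, and none could, as 0.1 is the smallest exact permutation p that this unpaired test allows. The Benjamini-Hochberg values were at least 0.45, and the test does not decide the question. An exact test on 3 pairs could not go below 0.25, so the pairs are given as a description. In 13 of the 18 ratios all 3 pairs went the same way, 7 higher and 6 lower in AdCre, beside 48.4% of all single genes. In 3 of the 18 the groups did not overlap, beside 15.4% of all single genes. Several ratios share a member, so they are not separate observations. The log2 ratio of Myh10 to Myh11 was 4.35, 3.93 and 4.14 in AdGFP and 3.79, 3.55 and 3.44 in AdCre, a difference of -0.55. That of Myh14 to Myh11 differed by -1.14, and that of Rgs4 to Rgs5 by 0.35. For Lmod2 to Lmod1 the difference was -0.86, with 3 of 3 pairs lower but overlapping groups, and for Mylk3 to Mylk it was -0.40. The largest positive differences were those of Mylk2 to Mylk (1.28) and of Rgs16 to Rgs5 (1.22). Within pairs 1 to 3 they came to 1.41, 0.80 and 1.61 and to 1.41, 1.11 and 1.15, although the groups overlapped.

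Of 27 other genes of smooth muscle contraction, 0 passed without the block and 4 had an unadjusted p under 0.05, beside 10.2% of all genes. Their median log2 fold change was -0.10, with 11 positive and 16 negative. With the block, 2 passed as higher and 1 as lower in limma, beside 6.15% of all genes in either direction, a share that also stands beside the paired counts of the lists that follow. Synm, which encodes the intermediate filament protein synemin, had 6.52, 3.59 and 2.67 FPKM in AdGFP and 11.7, 10.4 and 6.60 FPKM in AdCre. Its AdCre samples all lay above the AdGFP ones, AdCre 3 only just above AdGFP 1 (log2 fold change 1.20, adjusted p in the paired fit 0.0188 by limma). Actg2, the enteric smooth muscle actin, was higher in 3 of 3 pairs (0.38, adjusted p in the paired fit 0.043), and Nexn, which encodes the Z-disc protein nexilin of heart muscle, was lower (-0.51, 0.0451), both by limma. In the unpaired fit Actg2 was 0.14 without AdCre 1, 0.21 without AdGFP 2 and 0.61 without AdGFP 1. Acta2 itself had 881 ± 229 FPKM in AdGFP and 941 ± 122 FPKM in AdCre (SD, n = 3), a log2 fold change of 0.12 (95% interval -0.45 to 0.69; limma, adjusted p = 0.931).

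The contractile genes are driven by serum response factor and its coactivator myocardin. Of 11 regulators of this kind, 0 passed without the block, 4 had an unadjusted p under 0.05 (10.2% of all genes did), and the median log2 fold change was -0.01. With the block 2 passed, both lower. Myocd, which encodes myocardin and is made in heart muscle as well as smooth muscle, had 21.9, 23.4 and 19.2 FPKM in AdGFP and 16.6, 17.1 and 11 FPKM in AdCre. All AdCre samples lay below all AdGFP samples (log2 fold change -0.55, adjusted p in the paired fit 0.043 by limma). Without AdCre 3 the Myocd value was -0.34. Fhl2, a LIM-domain cofactor abundant in heart muscle, went from 231 ± 26.8 to 123 ± 20.7 FPKM (SD, n = 3; -0.91, adjusted p in the paired fit 0.0103 by limma). Srf had a log2 fold change of 0.01 (95% interval -0.55 to 0.57 without the block and -0.24 to 0.27 with it).

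Of 18 further mural cell markers, 17 were tested, and Vtn was listed at 0 in 4 samples and at no more than 0.0583 FPKM. The summed level of the 18 was 458 to 512 FPKM in AdGFP and 390 to 515 FPKM in AdCre. None passed without the block, 4 had an unadjusted p under 0.05 (10.2% of all genes did), and the median log2 fold change was -0.30. With the block, 3 passed as higher and 2 as lower in limma. Steap4, a metalloreductase of pericytes that other cells also make, had 3.55, 5.22 and 8.49 FPKM in AdGFP and 0.455, 0.945 and 2.47 FPKM in AdCre, all below the lowest AdGFP sample. Its log2 fold change was -2.27 (adjusted p in the paired fit 0.0119 by limma).

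Gucy1a1, a subunit of the nitric oxide receptor guanylate cyclase, was lower in 3 of 3 pairs (log2 fold change -0.74, adjusted p in the paired fit 0.0283), although its groups overlapped. That value was -0.25 without AdGFP 3, -0.39 without AdCre 1 and -1.18 without AdGFP 1. Higher in AdCre with the block were the calcium channel gene Trpc6 (0.86, 0.0289), the adhesion molecule gene Mcam, which endothelium shares (0.43, 0.0396), and the aminopeptidase gene Anpep (0.58, 0.0488), all by limma. The Anpep value was 0.28 without AdGFP 1. Trpc6 had 1.72, 1.57 and 1.24 FPKM in AdGFP and 2.96, 2.87 and 2.60 FPKM in AdCre. Of all 17 tested mural markers, 12 had a negative and 5 a positive log2 fold change, and of the 4 pericyte members 1 had a negative and 3 a positive one.

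The PDGF, Notch and RGS families that the pericyte members belong to had 0 genes passing without the block and 1 or 2 each with it. At an unadjusted p under 0.05 there were 1 of 5 PDGF ligands and receptors, 2 of 20 Notch genes and 2 of 10 RGS genes, beside 10.2% of all genes. Pdgfb, the ligand of Pdgfrb, had 14.2 ± 1.63 FPKM in AdGFP and 12.7 ± 1.87 FPKM in AdCre (SD, n = 3) and did not pass. Pdgfc, a ligand of PDGF receptor α, was at 5.32, 5.79 and 6.23 FPKM in AdGFP and 3.98, 4.34 and 4.18 FPKM in AdCre (log2 fold change -0.46, adjusted p in the paired fit 0.0499 by limma).

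Among the Notch genes, 15 of 20 tested had a positive log2 fold change, with a median log2 fold change of 0.19, and Notch1 passed with the block. That receptor, typical of endothelium, had 2.81, 3.40 and 4.52 FPKM in AdGFP and 5.37, 6.63 and 8.24 FPKM in AdCre, without overlap (log2 fold change 0.90, adjusted p in the paired fit 0.0145 by limma). The log2 ratio of Notch1 to Notch3 was higher in 3 of 3 pairs, by 0.79, 0.74 and 0.79, but its groups overlapped (exact permutation p = 0.2). Among 10 RGS genes tested, Rgs16 was higher (16.4 ± 4.71 against 28.4 ± 6.52 FPKM, SD, n = 3; 0.80, adjusted p in the paired fit 0.0303 by limma) and Rgs6 lower (2.94 ± 0.269 against 1.21 ± 0.17 FPKM, SD, n = 3; -1.21, 0.0153 by limma).

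Markers of other heart cells were present in every culture and some moved with the group. Over 15 cardiomyocyte markers the summed level was 5640 to 9710 FPKM in AdGFP and 3200 to 5010 FPKM in AdCre. All 15 had a negative log2 fold change, with a median log2 fold change of -0.78, and 0 passed without and 8 with the block. The sums of 12 endothelial markers (104 to 157 against 148 to 217 FPKM) and of 10 macrophage markers (50 to 274 against 88.6 to 346 FPKM) overlapped, with medians of 0.34 and 0.51 and 4 and 2 genes passing as higher with the block. Fibroblast markers (2860 to 5070 against 2690 to 3820 FPKM, median -0.24) had 1 higher and 3 lower, and epicardial markers (270 to 449 against 389 to 511 FPKM, median -0.42) 2 higher and 2 lower. Within pairs, the endothelial and macrophage sums were higher in AdCre at all 3 numbers and the cardiomyocyte and fibroblast sums lower. The epicardial sum was higher through the keratin genes Krt8 and Krt18, which were higher in AdCre in all 3 pairs. The keratin gene Krt19 fell from 133 to 74.2 FPKM in pair 1 and rose in pairs 2 and 3. The 7 markers that are not keratins all had a negative log2 fold change. They summed to 61.5, 103 and 277 FPKM in AdGFP and 57.2, 43.8 and 127 FPKM in AdCre. No list had a marker at 0 in all samples. Macrophage, fibroblast and endothelial sums were lowest in replicate 1 of both groups, as were 7 of the members. The part of these differences in the values of the members and of the other lists was not tested.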

How the data were processed

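RNA-seq of 6 cultures (AdGFP and AdCre, 3 each, grouped by the labels) was analysed. The authors deposited FPKM per gene and sample, unpooled; the submitters' processing notes name fastp, STAR 2.5, HTSeq 0.6.1 and the build mm10, while annotation and strand setting are not given in the sources used here. Of the 54532 Ensembl IDs, 54495 are in GENCODE M21, which gave symbols and coordinates. FPKM times exon length was a whole multiple of 1 step per sample (within 0.05 reads) for 96.9% of the 28445 genes above 0; the reads worked back in this way give the depth. Reads are not quoted for Notch3 and Acta2, whose values were not whole.

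The 13794 genes that averaged 0.5 FPKM or more were fitted as log2(FPKM + 0.1) in limma 3.58.1 (R 4.3.3; lmFit, eBayes with trend) and adjusted by Benjamini-Hochberg, with passing set at 0.05. All fold changes refer to this scale, on which changes of low genes come out too small. Single genes and ratios had exact permutation tests. The fit was tested on simulated data. Deviations from the group means correlated positively between same-numbered samples (0.568, 0.268 and 0.506). Other combinations gave -0.497 to 0.036, negative values being in part fixed by centring 3 samples. As all 3 same-numbered values exceed 0.1, the numbers, whose meaning the labels do not give, were taken to pair the samples from the values alone. Alternatives were pseudocounts, filters, TPM, centring, quantile normalization, no trend, voom, the replicate block and leaving out samples or pairs.

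The members and lists were chosen with earlier results of these data known. Genes named from a list were those passing without or with the block, at most 5, and all paralogs, and a few more are said to have been picked for their values or, as Acta2, Srf and Pdgfb, for their role. Motifs were searched in RefSeq promoter windows, and protein sequences were not analysed here. Python 3.11.15 with pandas 2.3.3 and scipy 1.17.1 was used.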

Additional observations from a re-analysis of the deposited data

How the results depend on the processing

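The count of members passing stayed at 0 under all 23 alternatives. The median log2 fold change of the members lay between -0.09 and 0.06 when single samples were left out, as did that of the contractile members, and that of the pericyte members between -0.10 and 0.20. Rescaling to TPM moved the median of all genes to 0.09 and made 7 of 10 members positive instead of 5.

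The replicate block was the choice that mattered for other genes. The number of genes passing, 1 in the reported fit, was 848 with the replicate block, 772 without pair 1, 149 without pair 2 and 1 without pair 3. In fits chosen after seeing the data, the block gave 875 with TPM, 17 without the filter, 0 without the trend and 1739 with voom. Of the 18 genes named as passing with the block, 14 passed without pair 1, 4 without pair 2, 0 without pair 3, 14 with TPM, 0 without the filter, 0 without the trend and 18 with voom. No member changed its call under the block. Genes passing in the lists beside the members went from 0 to 40 with the block, 40 without pair 1, 9 without pair 2, 38 with TPM and 70 with voom, and were 0 with the block without pair 3, without the filter or without the trend. Without the block the number of genes passing was 3 with a pseudocount of 1, 0 without a filter, 4 without the trend, 0 with voom and 0 to 2 when single samples were left out.

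Directions turned under some alternative for 8 of the 10 members, all but Tagln and Pdgfrb. Smtn and Lmod1 became 0.05 with TPM and 0.02 with voom, both without and with the block. With the block, Cnn1 was 0.00 without pair 1, Smtn 0.01, Lmod1 0.06 and Cspg4 -0.06 without pair 2, and Smtn 0.01, Cspg4 -0.00 and Cnn2 -0.01 without pair 3. When single samples were left out, Cnn1 ranged from -0.43 to 0.17, Myh11 from -0.01 to 0.36, Smtn from -0.22 to 0.11, Lmod1 from -0.16 to 0.03, Mylk from -0.84 to 0.01, Rgs5 from -0.65 to 0.03, Notch3 from -0.21 to 0.47 and Cspg4 from -0.32 to 0.48. The causes were not tested. With 3 samples a group, the intervals of the members reach as far as -1.47 (Mylk) and 1.11 (Cspg4) on the log2 scale, and Tagln has the fewest reads. The planned comparison of protein sequences was not run.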
